A study of Mus musculus with 95 samples.

Results

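The liver response to 11 days of high-dose valproic acid was read from 10 of the 95 arrays of a mouse series, the 5 titled with valproic acid at 500 mg/kg body weight and 11 days and the 5 titled with the vehicle, phosphate-buffered saline (PBS), of the same day. The arrays were chosen by title alone, and all 16464 genes that carry 1 symbol were compared between the 2 groups. The series set valproic acid, amiodarone and tetracycline beside their vehicles to profile steatosis, in which liver cells fill with fat droplets. Every animal was a male C57BL/6 mouse of 10 weeks that took compound or vehicle by oral gavage, and the labels name no other treatment and no altered gene. Used beside these 10 were the day 11 arrays of valproic acid at 250 and 125 mg/kg and of amiodarone at 60 mg/kg, with 5 arrays each, and the day 1 and day 4 arrays of valproic acid at 500 mg/kg and of PBS, with 4 arrays each. The labels do not say whether each array holds a separate animal, so every p-value reflects the spread between arrays, which may be technical.

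Valproic acid is a branched short-chain fatty acid given against epilepsy and also inhibits histone deacetylases, enzymes that remove acetyl groups from histones. In liver it is coupled to coenzyme A and carnitine, oxidised in mitochondria, hydroxylated at its end by microsomal enzymes and joined to glucuronic acid, and fat storage and raised ammonia are known side effects. Genes of fatty acid oxidation in mouse liver answer to the fatty acid receptor PPARA, genes of drug metabolism to the receptors CAR and PXR, and a set of male genes to the pulses of growth hormone.

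Expression was measured as log2 values on Affymetrix arrays, and the array medians of the 10 lay between 3.08 and 3.13, with correlations between arrays from 0.986 to 0.995. The number of arrays limits the precision. A gene is called when its adjusted p lies under 0.05 in limma (Benjamini-Hochberg over all 16464 genes), and changes are log2 fold changes ± SE. The SE rests on 1 spread per gene, shared by all 95 arrays in 21 groups. It can be wider or narrower than the SDs of the groups compared would give. A group mean under 3.09 (the median of all values) is close to background, and a change measured against it is a lower bound in size. Values of single arrays are given in the order 006, 028, 049, 078 and 081 for valproic acid and 002, 020, 032, 073 and 090 for PBS. Tissue was whole liver, in which fewer cells of a type and less RNA per cell cannot be told apart. Probe sets of close relatives, such as the Cyp2b, Cyp4a, Acot, Ugt2b and Mt genes, may share signal, which was not tested.

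The tissue read as liver on all 10 arrays. The mean level over 11 hepatocyte markers, the albumin and transthyretin genes among them, ran from 12.30 to 12.37 on the valproic acid arrays and from 12.41 to 12.50 on the vehicle arrays, with 3 of the 11 called lower and none higher. That count fell to 1 without valproic acid array 006 or PBS array 073 or 090 and to 0 with only the compared arrays in the fit. The mean over 17 Kupffer cell and macrophage markers ran from 5.23 to 5.58 in the treated and from 5.29 to 5.58 in the vehicle group, and that over 9 neutrophil markers from 2.90 to 3.37 and from 2.86 to 3.27. In limma 0 members were called of the Kupffer cell (17), stellate cell (15), endothelial (14), lymphocyte and NK cell (12), neutrophil (9), exocrine pancreas (9) and adipocyte (6) lists. At an unadjusted p under 0.05 stood 0, 3, 2, 0, 0, 1 and 1 of their members, beside 3378 of all 16464 genes. Of 10 cholangiocyte markers Tff3 alone was called, lower, and of 3 erythrocyte markers Alas2 alone (-0.89 ± 0.18, adjusted p = 0.00024). Of 15 pericentral markers 6 were called higher, led by Oat and Rhbg, and Glul, which defines the cells around the central vein, was not called (0.13 ± 0.07). Of 7 periportal markers Hal was called higher and Cdh1 and Cyp2f2 lower (-0.74 ± 0.16 and -0.29 ± 0.07). Beside these counts, 5.89% of all genes tested were called higher and 3.14% lower.

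Valproic acid at 500 mg/kg changed 1487 genes after 11 days, 9.03% of those tested, with 970 higher (5.89%) and 517 lower (3.14%). Of these, 88 differed by more than 2-fold, 56 higher and 32 lower. The groups did not overlap for 718 genes with all treated arrays higher (4.36%) and for 431 with all lower (2.62%). Every count of list members called against PBS is to be read beside the 5.89% and 3.14% of all genes. The lists were chosen with earlier results of these data known, so such a reading is a description and not a test. The balance of the directions depended on the scaling, since normalizing the quantiles again gave 756 higher and 708 lower. Among the largest rises were genes of fatty acid hydroxylation and of drug metabolism, and among the largest falls were genes that male liver expresses more than female liver. The plot of change against vehicle level shows the called genes across the whole range of expression.

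**Figure D1:**
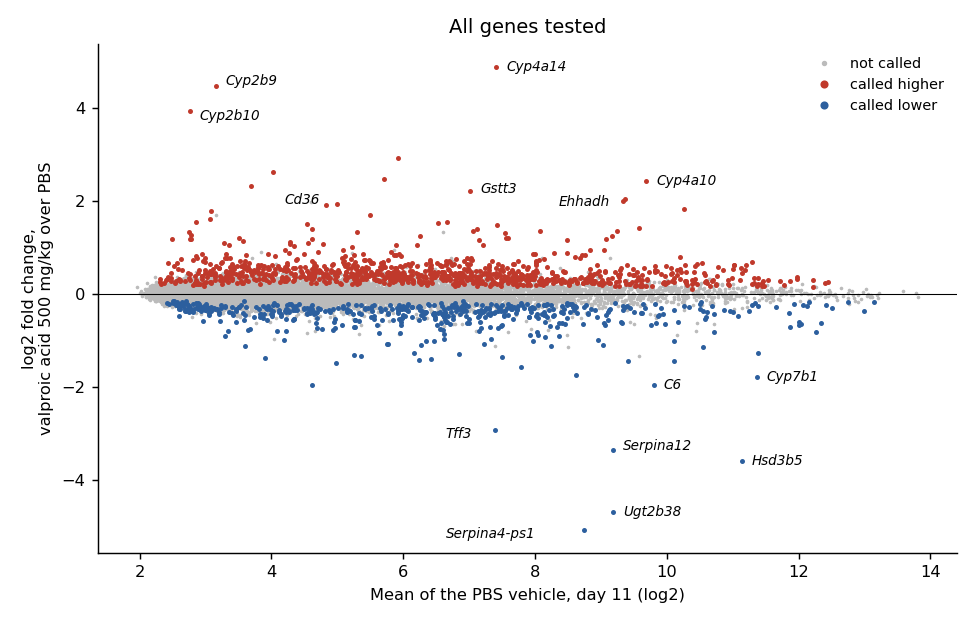
Each point is 1 of 16464 genes, with its mean on the 5 PBS arrays of day 11 (log2) on the horizontal axis and its log2 fold change at 500 mg/kg of valproic acid on the vertical axis. Red points are the 970 genes called higher and blue points the 517 called lower, from Cyp4a14 at 4.88 to Serpina4-ps1 at -5.06.

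Fatty acid omega-hydroxylation genes held the largest rise. Cyp4a14 (Entrez Gene 13119), a microsomal enzyme that hydroxylates the far end of fatty acids, stood at 12.33, 12.22, 12.16, 12.45 and 12.32 on the treated arrays and at 8.05, 6.52, 8.65, 6.83 and 7.03 on the vehicle arrays. The vehicle arrays spread more widely than the treated arrays and stayed below all of them, and the gene rose 29.5-fold (4.88 ± 0.75, adjusted p = 1.4e-06). Its relatives Cyp4a31 and Cyp4a10 rose by 2.47 ± 0.29 and 2.42 ± 0.33, and Aldh3a2, which oxidises the fatty aldehydes that follow, by 0.74 ± 0.16. Of 9 measured genes of this step 5 rose and 1 fell, Cyp4v3 (or 3 fell after normalizing the quantiles again), against 5.89% and 3.14% of all genes, and the list median was 0.39 where that of all genes was -0.01. Cyp4a12a, the male-predominant member, was 9.65 ± 0.65 (SD, n = 5) against 10.45 ± 0.40 and was not called (adjusted p = 0.065).

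Peroxisomal and acyl-CoA genes rose beside them. Ehhadh (Entrez Gene 74147), the bifunctional enzyme of peroxisomal beta-oxidation, stood at 11.63, 11.20, 10.97, 11.66 and 11.52 against 9.14, 9.27, 9.61, 9.40 and 9.38 with PBS. All 5 treated arrays lay above the vehicle arrays by more than 1 log2 unit, a 4.11-fold rise (2.04 ± 0.16, adjusted p = 2.4e-17). Of 21 peroxisomal genes 9 rose and 1 fell (median 0.26), with Hacl1, which shortens branched acids, at 0.60 ± 0.11 and Ech1, an isomerase, at 0.59 ± 0.08. The fall was in Amacr (-0.29) and was not called without valproic acid array 049 or PBS array 002. Of 11 acyl-CoA thioesterases, which release fatty acids from coenzyme A, 7 rose and 0 fell in limma (0 lower at an unadjusted p under 0.05, median 0.35).

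Acot1, Acot2, Acot3 and Acot4 carried the largest of the thioesterase changes. Acot3 stood at 7.96, 7.34, 4.84, 6.33 and 6.81 on the treated arrays and at 4.40, 3.90, 4.02, 4.79 and 3.01 on the vehicle arrays. Array 049 was the lowest of the treated group, only just above the highest vehicle array, and the rise was 2.63 ± 0.59 (adjusted p = 0.0011). Acot1 rose 3.24-fold (1.70 ± 0.31), Acot2 by 0.85 ± 0.16 and Acot4 by 0.88 ± 0.26, a call lost without valproic acid arrays 006 or 028 or PBS arrays 002 or 090. Acnat2, a peroxisomal acyltransferase that joins fatty acids to amino acids, rose by at least 1.62 ± 0.30 from a vehicle mean of 3.07, close to background.

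Genes that fasting switches on through PPARA did not move as a block. Of 11 of them 3 were called higher and 2 lower (median -0.04). Retsat, a retinol saturase, rose 2.69-fold (1.43 ± 0.13, adjusted p = 4.4e-13), and Vnn1, which breaks down pantetheine, rose by 1.40 ± 0.28. Fgf21, the hepatic fasting hormone, stood at 2.62, 2.14, 2.39, 2.40 and 2.41 against 4.72, 3.08, 3.52, 2.44 and 2.73. The treated mean lay below 3.09, close to background, and the groups overlapped. Its change of -0.91 ± 0.27 (adjusted p = 0.021) was not called without valproic acid array 028, PBS array 002 or PBS array 032, or with only the compared arrays in the fit. Cpt1a, the carnitine palmitoyltransferase that lets fatty acids into mitochondria, was 9.10 ± 0.09 against 9.14 ± 0.14 and was not called (adjusted p = 0.9).

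**Figure D2:**
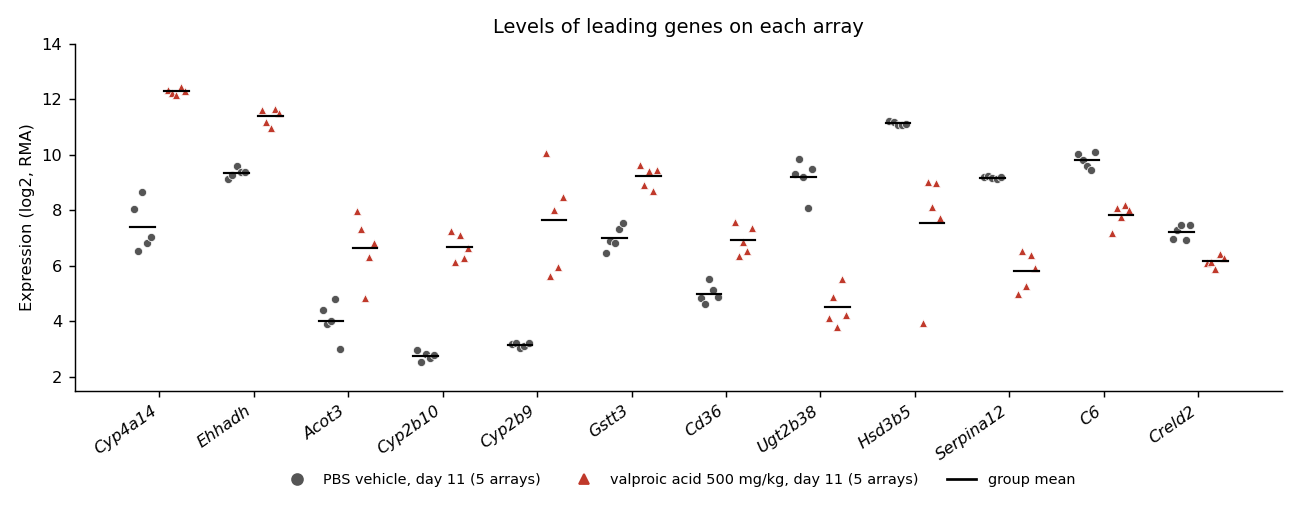
Each point is the log2 level of a gene on 1 array, grey circles for the 5 PBS arrays and red triangles for the 5 arrays of valproic acid at 500 mg/kg, with group means as black lines. The groups do not overlap for any of the 12 genes. For all but Creld2 this was set by the choice, since the largest changes were taken only from genes without overlap. The treated arrays spread most for Cyp2b9, from 5.65 to 10.07, and Hsd3b5, from 3.95 to 9.01.

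Mitochondrial oxidation genes rose by smaller amounts and with little spread. Of 21 mitochondrial oxidation genes 12 rose and none fell (median 0.29). Acadl, a long-chain acyl-CoA dehydrogenase, stood at 10.68, 10.65, 10.56, 10.64 and 10.61 on the treated arrays and at 10.02, 10.00, 10.11, 10.11 and 10.09 on the vehicle arrays. Both groups kept within a narrow band, and the rise was 1.47-fold (0.56 ± 0.07, adjusted p = 4.1e-09). Acad10 showed the largest change of the list, from 4.62 ± 0.42 (SD, n = 5) to 6.03 ± 0.18 (SD, n = 5), a rise of 1.41 ± 0.24. Acadm, the medium-chain dehydrogenase, rose by 0.45 ± 0.08 and Eci1, an isomerase for unsaturated acids, by 0.48 ± 0.10.

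Enzymes that break down branched-chain and other amino acids rose with them. Of 21 genes of branched-chain amino acid breakdown 14 rose and none fell (median 0.28), or 8 with only the compared arrays in the fit. Mccc1 and Mccc2, the subunits of methylcrotonyl-CoA carboxylase in leucine breakdown, rose by 0.46 ± 0.06 and 0.45 ± 0.10, and Bckdhb, a subunit of the branched-chain ketoacid dehydrogenase, by 0.45 ± 0.08. Of 20 genes of other amino acid catabolism 11 rose and none fell (median 0.35). Got1, the cytosolic aspartate aminotransferase, stood at 10.36, 10.20, 10.94, 9.52 and 10.24 against 9.34, 9.29, 8.43, 9.03 and 9.26. Array 078 was the lowest of the treated arrays and PBS array 032 the lowest of the vehicle arrays, and the rise was 1.18 ± 0.24 (adjusted p = 0.00025). Prodh, proline dehydrogenase, rose by 0.85 ± 0.16, Cth, which makes cysteine, by 0.66 ± 0.10 and Oat, ornithine aminotransferase, by 0.64 ± 0.10.

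In the citric acid cycle and pyruvate entry 11 of 25 genes rose (median 0.18), or 7 with only the compared arrays and 7 after normalizing the quantiles again. Idh2, the mitochondrial isocitrate dehydrogenase, rose 1.79-fold (0.84 ± 0.09, adjusted p = 1.8e-11), and Pdk1, a kinase that shuts off pyruvate dehydrogenase, rose by 0.65 ± 0.14. Of 26 genes of oxidative phosphorylation 5 rose (median 0.07), and the count fell to 3 without valproic acid array 006 or 081 or PBS array 032, to 1 after normalizing the quantiles again and to 0 with only the compared arrays. Of 17 coenzyme A and carnitine genes 6 rose and 1 fell, or 3 and 1 without array 006, 3 and 1 with only the compared arrays, and 2 and 1 after normalizing the quantiles again. The one that fell was Nudt7, a peroxisomal hydrolase of coenzyme A (-0.62 ± 0.12). Clpx, the unfoldase of a mitochondrial protease, rose from 8.49 ± 0.33 (SD, n = 5) to 9.66 ± 0.40 (SD, n = 5), by 1.17 ± 0.17, and led 4 of 13 mitochondrial chaperones and proteases called higher, or 2 with only the compared arrays. Of 12 urea cycle and ammonia genes 2 rose, the ammonia carrier gene Rhbg (0.56 ± 0.17) and Slc25a15, the ornithine carrier gene (0.29 ± 0.08), and neither was called without PBS array 073 or with only the compared arrays. Nags, which makes the activator of the cycle, was 7.40 ± 0.12 against 7.20 ± 0.24 and was not called (adjusted p = 0.23).

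Drug metabolism genes under the receptors CAR and PXR rose in 12 of 20 cases and fell in none (median 0.35). Cyp2b10 (Entrez Gene 13088), the standard CAR target, stood at 7.27, 6.15, 7.11, 6.29 and 6.64 on the treated arrays and at 2.97, 2.53, 2.82, 2.69 and 2.78 on the vehicle arrays. All vehicle arrays were close to background, so the rise of 15.3-fold (3.93 ± 0.33, adjusted p = 3.5e-15) is a lower bound. Its relative Cyp2b9 (Entrez Gene 13094), which female mouse liver expresses more than male, stood at 10.07, 5.65, 8.02, 5.95 and 8.49 against 3.17, 3.23, 3.02, 3.12 and 3.23. Treated arrays 028 and 078 were more than 2 log2 units below the other 3 and still above every vehicle array, and the change was 4.48 ± 0.54 (adjusted p = 3e-09).

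The sequences before the starts of these 2 genes of chromosome 7 are shown because both genes rose so far from so low a level. They cover chr7:25897408-25897657 for Cyp2b10 and chr7:26173159-26173408 for Cyp2b9, 250 bases on the plus strand of GRCm38.p6 from RefSeq, and capitals mark the 126 of 249 aligned bases (50.6%) that are the same in both without gaps. Some stretches present in both but shifted against each other stay mostly in small letters, since an alignment with gaps was not run.
Cyp2b10: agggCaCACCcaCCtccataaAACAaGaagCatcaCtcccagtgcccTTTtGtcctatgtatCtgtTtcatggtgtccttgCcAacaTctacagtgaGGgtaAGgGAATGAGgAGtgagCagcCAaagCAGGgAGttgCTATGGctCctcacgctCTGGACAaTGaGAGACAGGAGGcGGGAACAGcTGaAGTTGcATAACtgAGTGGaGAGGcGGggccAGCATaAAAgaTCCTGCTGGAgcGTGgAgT
Cyp2b9: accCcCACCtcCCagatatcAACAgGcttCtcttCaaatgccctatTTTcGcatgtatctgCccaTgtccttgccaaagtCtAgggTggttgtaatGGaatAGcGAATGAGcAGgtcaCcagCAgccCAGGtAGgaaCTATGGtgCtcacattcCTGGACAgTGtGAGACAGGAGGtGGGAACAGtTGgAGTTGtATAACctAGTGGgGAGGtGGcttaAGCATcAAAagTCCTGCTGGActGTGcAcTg

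Other members of the receptor list rose by less. Cyp2c38 rose 2.91-fold (1.54 ± 0.24), Cyp2c39 by at least 0.79 ± 0.15 from a level close to background, and Cyp2c54 and Cyp2c37 by 0.63 ± 0.12 and 0.54 ± 0.12. Nr1i3, which encodes CAR itself, rose by 0.62 ± 0.17 (adjusted p = 0.0092). The PXR target Cyp3a11, near the top of the scale at 13.07 ± 0.05 (SD, n = 5) against 13.10 ± 0.06 (SD, n = 5), was not called, nor was Cyp2b13, close to background in both groups. Of 8 targets of the AHR receptor Nqo1 alone was called, higher.

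Some genes of glutathione and sulfate conjugation were among those that rose. Gstt3 (Entrez Gene 103140), a theta class glutathione transferase, stood at 9.64, 8.93, 9.42, 8.71 and 9.47 on the treated arrays and at 6.46, 6.91, 6.81, 7.34 and 7.55 on the vehicle arrays. The groups lay more than 1 log2 unit apart, with a 4.66-fold rise (2.22 ± 0.25, adjusted p = 6.8e-10). Of 22 antioxidant enzymes under NRF2 9 rose and 1 fell (median 0.23). Gsta2 rose by 1.25 ± 0.26, Gstm3 by 1.05 ± 0.28 and the quinone reductase gene Nqo1 by 1.03 ± 0.23, whereas Hmox1, Txnrd1 and Srxn1, 3 further targets, had values of -0.11 ± 0.21, -0.14 ± 0.10 and 0.28 ± 0.11 that were not called. The fall was in Gclm (-0.20) and was not called with only the compared arrays or without any 1 of 7 of the 10 arrays. Mgst3, a microsomal glutathione transferase outside the list, rose 2.95-fold. Of 18 genes of glucuronidation and sulfation 4 rose and 3 fell (median -0.13). The 4 were all of sulfation, with Sult1d1 at 0.89 ± 0.15 and Papss2, which makes the sulfate donor, at 0.75 ± 0.11. The 3 that fell were all glucuronosyltransferases of the Ugt2b family, and 2 to 5 fell as single arrays were left out, 5 without valproic acid array 078, and 6 with dim genes left out or quantiles normalized again.

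Of 19 carriers of organic ions and bile acids 6 rose and 1 fell. Slco1a4, an uptake carrier, stood at 9.62, 9.29, 9.39, 9.35 and 9.47 against 7.18, 8.22, 8.32, 8.75 and 7.91. Its treated arrays kept close together, above the widely spread vehicle arrays, a rise of 1.35 ± 0.25 (adjusted p = 6.5e-05). The male-predominant carrier Slco1a1 stood at 7.57, 9.15, 8.41, 9.41 and 8.84 against 9.96, 10.14, 10.22, 10.17 and 10.06 and changed by -1.43 ± 0.41 (adjusted p = 0.013). Array 006 was the lowest, and without it the change was not called. Of 16 bile acid synthesis genes 3 rose and 3 fell, or 3 rose and 5 fell after normalizing the quantiles again, with Akr1d1 at 0.87 ± 0.15 and Cyp39a1 at 0.76 ± 0.19 against Cyp7b1, an oxysterol hydroxylase, at -1.78 ± 0.34. Cyp7a1, the rate-limiting enzyme, was 8.41 ± 0.63 against 8.35 ± 0.35 and was not called.

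Genes of male liver fell together. Of 17 male-predominant genes 14 fell and none rose, against 3.14% of all genes lower, with a median of -0.75. Ugt2b38 (Entrez Gene 100559), a glucuronosyltransferase, stood at 4.11, 4.86, 3.80, 5.51 and 4.21 on the treated arrays and at 9.32, 9.84, 9.20, 8.07 and 9.50 on the vehicle arrays. Treated livers kept 3.88% of the vehicle level, and no treated array came within 2 log2 units of the vehicle arrays (-4.69 ± 0.64, adjusted p = 7.8e-08). Serpina12 (Entrez Gene 68054), which encodes the secreted protein vaspin, stood at 4.98, 6.52, 5.28, 6.40 and 5.91 against 9.20, 9.23, 9.15, 9.13 and 9.19. Its vehicle arrays hardly differed and every treated array lay more than 2 log2 units below them, a fall to 9.74% (-3.36 ± 0.39, adjusted p = 8.7e-10).

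Hsd3b5, a steroid dehydrogenase of male mouse liver, stood at 3.95, 9.01, 8.12, 8.98 and 7.71 against 11.23, 11.18, 11.08, 11.08 and 11.12. Array 006 lay more than 3 log2 units below the next treated array, and the change of -3.58 ± 0.59 (adjusted p = 6.7e-06) ranged from -3.94 to -2.68 as arrays were left out. Array 006 was the lowest treated array for 11 of the 17 male-predominant genes and the highest for 9 of 15 female-predominant genes. The mean over the male-predominant genes was 7.64 on array 006 and 8.22 to 8.73 on the other 4, against 9.51 to 9.92 on the vehicle arrays. Of the 15 female-predominant genes 6 rose and none fell (median 0.24). Among the 6 are Acot3 and Cyp2b9, counted above with the thioesterases and with the CAR and PXR targets. Fmo2, a flavin monooxygenase, rose by 1.08 ± 0.22, and Cyp17a1, a steroid hydroxylase, by 2.33 ± 0.46 with treated array 078, at 3.86, inside the vehicle range.

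Of 14 growth hormone signalling genes 2 were called lower and none higher, or 1 to 3 lower as single arrays were left out. The list median was -0.004, and the members ran from -1.11 to 0.77. Ghr, the receptor gene, fell by 0.33 ± 0.07 on the log2 scale (adjusted p = 0.00021) and Igf1, its main product in liver, by 0.25 ± 0.07, a call lost without PBS array 020 or with only the compared arrays. The other 12 of the 14 genes were not called, among them Stat5b, which carries the male signal (0.30 ± 0.11), Bcl6 (0.47 ± 0.65) and Cish (-0.56 ± 0.60). For Bcl6 and Cish the SE was larger than the change, so neither value shows a lack of change.

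The largest fall of all was in Serpina4-ps1, a pseudogene of the serpin cluster, from 9.53, 9.83, 8.35, 7.29 and 8.73 on the vehicle arrays to 2.94, 5.22, 2.96, 3.66 and 3.64 on the treated arrays. Array 028 stayed more than 1 log2 unit above the rest of its group, and the level kept was 2.99% of the vehicle (-5.06 ± 0.68). Other falls outside the male-predominant list were in Tff3, a trefoil peptide (-2.91 ± 0.42), Adgrf1, an adhesion receptor (-1.96 ± 0.31, to a level close to background), Osgin1 (-1.74 ± 0.25), Tsc22d1, a transcription factor (-1.44 ± 0.26), Cyp2u1 (-1.41 ± 0.20), Adh6-ps1 (-1.39 ± 0.28), Serpina9 (-1.37 ± 0.29, to a level close to background) and Aox3, an aldehyde oxidase (-1.26 ± 0.17). Nrep changed by -1.56 ± 0.46, a call lost without valproic acid array 049 or PBS array 020. Ccnd1, which encodes the G1 cyclin D1, fell to 39.1% (-1.35 ± 0.22, adjusted p = 6.3e-06), while of 28 genes of DNA replication and mitosis only Ccnd1, Mcm10 and Tk1 were called, Tk1 higher. The calls of Mcm10 and Tk1 were each lost without several single arrays, arrays 006 and 049 among them.

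Several complement genes of the late pathway fell. Of 30 genes of complement and coagulation 11 were called lower and none higher (median -0.06), or 7 with only the compared arrays. C6 (Entrez Gene 12274), a part of the membrane attack complex, stood at 7.17, 8.08, 7.76, 8.21 and 8.00 on the treated arrays and at 10.05, 9.82, 9.61, 9.46 and 10.09 on the vehicle arrays. The lowest vehicle array stood more than 1 log2 unit above the highest treated array, a fall to 25.7% (-1.96 ± 0.21, adjusted p = 5.4e-11). Among genes of the other parts, lower levels were called for C8b at -1.14 ± 0.14, C9 at -0.80 ± 0.09, C8a at -0.71 ± 0.10 and Hc, which encodes C5, at -0.41 ± 0.09, while C8g was not called (-0.05 ± 0.05, adjusted p = 0.63) except, as lower, after normalizing the quantiles again (-0.17). C6, C8a and C8b are also in the male-predominant list, and Hc was the only 1 of the 5 whose groups overlapped. Of the coagulation factors, F11 fell by 0.62 ± 0.13, and F2, F9, F10 and Plg lay between -0.04 and 0.02 with no call. Array 006 was the lowest treated array for 23 of the 30 genes.

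Secreted factors fell in 8 of 22 cases and rose in 1, Lect2, a call lost without valproic acid array 049 or 081. Besides Serpina12 and Tff3, the activin subunits Inhbc and Inhba fell by 1.29 ± 0.21 and 1.06 ± 0.24 on the log2 scale, and Enho, which encodes adropin, changed by -0.83 ± 0.23, a call lost without valproic acid array 006. Hamp2, a hepcidin gene, stood at 12.44, 12.17, 11.74, 11.59 and 12.48 against 10.62, 10.18, 10.30, 11.34 and 8.86 and rose by 1.82 ± 0.41 (adjusted p = 0.0011). Vehicle array 073 came close to the lowest treated array, and none overlapped. Hamp itself, which encodes the iron hormone hepcidin, was 12.28 ± 0.15 against 12.05 ± 0.45 and was not called (adjusted p = 0.61).

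Chaperones of the endoplasmic reticulum fell. Of 22 measured genes 9 were called lower, 1 higher and 12 not, with a median of -0.42, and 14 were lower with dim genes left out. The mean over the 22 genes ran from 7.54 to 7.80 on the treated and from 7.87 to 8.25 on the vehicle arrays. Creld2 (Entrez Gene 76737), a secretory folding factor, stood at 6.09, 6.13, 5.88, 6.44 and 6.27 on the treated arrays and at 6.98, 7.28, 7.48, 6.94 and 7.47 on the vehicle arrays. The groups did not overlap, and the level fell to 47.8% (-1.07 ± 0.29, adjusted p = 0.0091). Dnajb11, a partner of the chaperone BiP, fell by 1.00 ± 0.16 on the log2 scale, Calr, calreticulin, by 0.62 ± 0.12 and Hsp90b1, the endoplasmic HSP90, by 0.46 ± 0.08. Xbp1, the transcription factor of the unfolded protein response, fell by 0.53 ± 0.12 (adjusted p = 0.0016). Hspa5, which encodes BiP, stood at 9.16, 9.50, 9.24, 9.47 and 9.49 against 9.63, 9.60, 10.28, 9.69 and 9.89 with no overlap and was just short of a call (-0.44 ± 0.15), and 13 were called lower after normalizing the quantiles again. The one called higher was Edem1 (0.23), and that call was lost with only the compared arrays, after normalizing the quantiles again and without any 1 of 6 single arrays.

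The endoplasmic reticulum stress element, CCAAT and CCACG with 9 bases between them, is a known response element of these genes, and it was searched for on both strands after their values were seen. Of the 22 genes, 19 had an entry in the RefSeq promoter table, and 9 of the 19 held the element in the 250 bases before the start, against 37 of 32851 promoters (0.113%). The 5 called lower among the 9 were Calr, Creld2, Dnajc3, Hsp90b1 and Pdia6. The rest of the 9, Hspa5 and Derl3 among them, were not called. Dnajb11 and Xbp1 were called lower and had an entry without the element. The 5 are shown with Hspa5 in gene direction, with 10 bases on either side and the fixed letters in capitals (RefSeq, GRCm38.p6), and the remaining sequences are not shown. Calr, Creld2 and the second element of Hsp90b1 hold it reversed, as CGTGG and ATTGG.
Calr, chr8:84847065-84847103, minus strand: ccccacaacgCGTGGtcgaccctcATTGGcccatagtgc
Creld2, chr15:88819510-88819548, plus strand: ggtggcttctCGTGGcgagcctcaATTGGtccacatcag
Dnajc3, chr14:118937817-118937855, plus strand: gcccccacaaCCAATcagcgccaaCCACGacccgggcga
Hsp90b1 element 1, chr10:86705628-86705666, minus strand: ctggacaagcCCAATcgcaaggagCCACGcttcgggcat
Hsp90b1 element 2, chr10:86705523-86705561, minus strand: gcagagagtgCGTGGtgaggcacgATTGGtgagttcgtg
Hspa5, chr2:34772015-34772053, plus strand: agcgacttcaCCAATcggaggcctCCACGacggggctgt
Pdia6, chr12:17266481-17266519, plus strand: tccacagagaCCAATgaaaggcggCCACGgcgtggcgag
The first letter lay from 65 to 212 bases before the start in these genes. The call of Pdia6 (-0.40 ± 0.12) was lost without valproic acid array 006, 028 or 081, without PBS array 020 or 090 and with only the compared arrays. The hexamer AGGNCA in direct repeat with 1 base between copies, the form that PPARA binds with its partner receptor, was in 0 of the 19 promoters of 16 peroxisomal genes, 0 of the 8 of 5 hydroxylase genes and 0 of the 13 of 10 thioesterase genes, and in 111 of 32851 promoters (0.338%). With so low a share over all promoters, 0 hits in so few promoters cannot tell these genes from others. Only exact copies were sought, and bases further upstream were not searched. Cyp4a10, Cyp4a14 and Cyp4a31 had no entry.

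**Figure D3:**
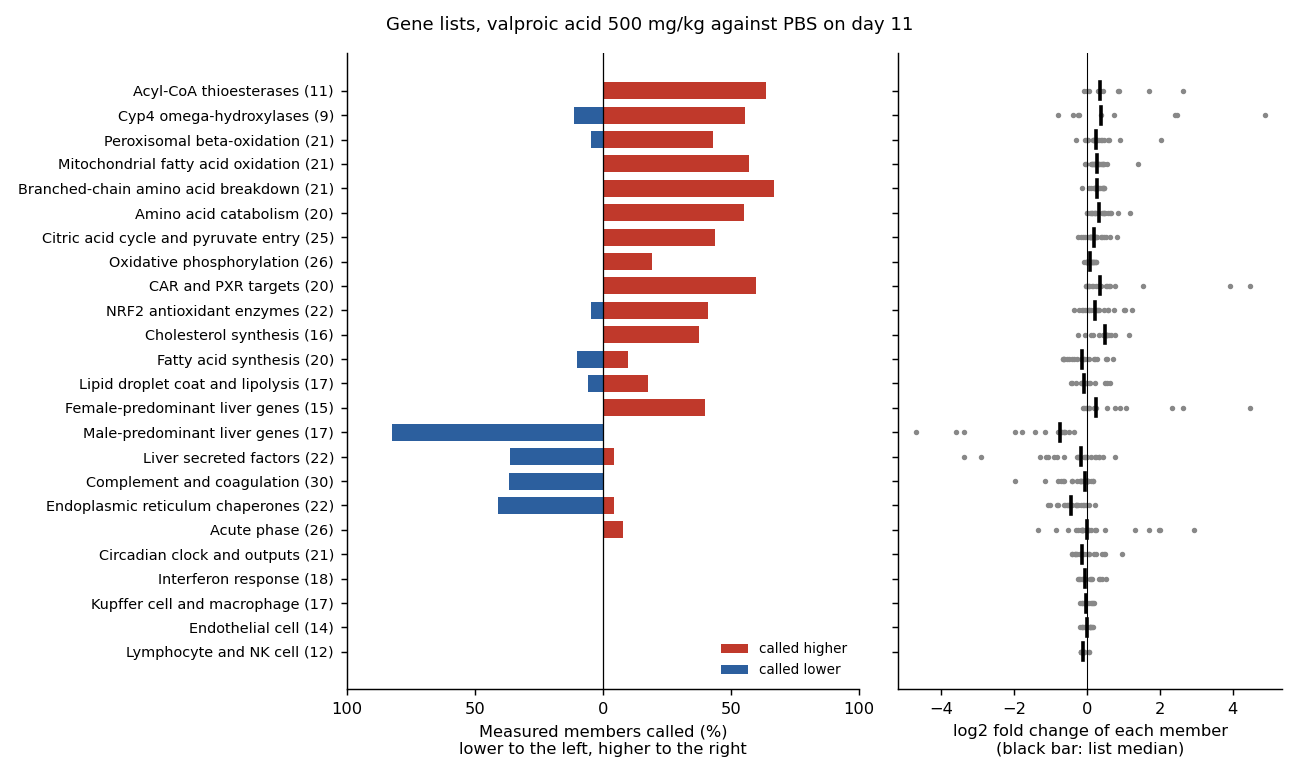
The left panel gives the share of the measured members (number in brackets) of 24 gene lists called higher to the right in red and lower to the left in blue, and the right panel gives the log2 fold change of each member with the list median as a black bar. Male-predominant genes reach furthest to the left, with 14 of 17 called, and branched-chain amino acid breakdown furthest to the right, with 14 of 21.

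Genes of the acute phase were unevenly placed within the treated group. Array 049 was the highest treated array for 23 of 26 acute phase genes, with a list mean of 10.43 against 8.97 to 9.36 on the other 4 and 8.78 to 9.41 on the vehicle arrays. Saa1, a serum amyloid gene, stood at 7.20, 7.80, 12.16, 7.13 and 6.97 against 9.02, 8.98, 9.11, 10.85 and 9.93. Without array 049 the treated arrays all lay below the vehicle arrays, and the change over all 5 of -1.33 ± 0.76 was not called (adjusted p = 0.33). Lcn2, lipocalin 2, stood at 7.53, 5.25, 10.95, 3.61 and 5.56 against 4.24, 4.47, 3.74, 5.85 and 4.67, again with array 049 highest, and was not called. The same array was the highest treated array for 11 of the 22 endoplasmic reticulum chaperones and for 9 of 17 Kupffer cell markers.

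The 2 acute phase genes called were the metallothioneins, metal-binding proteins that zinc and glucocorticoids induce. Mt2 stood at 10.04, 7.03, 10.35, 7.40 and 9.41 on the treated arrays and at 7.92, 6.65, 3.80, 5.50 and 5.69 on the vehicle arrays. Treated arrays 028 and 078 lay inside the vehicle range, and the change of 2.93 ± 0.79 (adjusted p = 0.0081) was not called without PBS array 032, the lowest of its group. Mt1 changed by 1.99 ± 0.53 (adjusted p = 0.0073) and was likewise not called without that array.

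Single genes of lipid uptake and glycerolipid assembly were among the largest rises. Of the 16 genes listed for triglyceride and phospholipid assembly, which leave out Gpat3, only 1 was called higher, where 5.89% of all genes were. Cd36 (Entrez Gene 12491), a fatty acid transporter, stood at 7.57, 6.37, 6.86, 6.54 and 7.35 on the treated arrays and at 4.84, 4.64, 5.53, 5.11 and 4.88 on the vehicle arrays. The groups did not overlap and the rise was 3.83-fold (1.94 ± 0.22, adjusted p = 8.7e-10). Gpat3, which starts glycerolipid assembly, rose by at least 1.56 ± 0.24 from a level close to background, and Mfsd2a, a lysophospholipid transporter, rose by 1.93 ± 0.54 (adjusted p = 0.011). Aqp8, a water channel gene, rose 2.82-fold, and Atp6v0d2, a proton pump subunit, rose by at least 1.78 ± 0.20. Of 18 uptake and binding genes 4 rose and none fell (median 0.11), and of 17 lipid droplet and lipolysis genes 3 rose and 1 fell (median -0.07). Plin2, a coat protein of the droplet, was 10.74 ± 0.22 against 10.88 ± 0.26 and was not called (adjusted p = 0.64), and Cidec was close to background in both groups.

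Of 20 fatty acid synthesis genes 2 rose and 2 fell (median -0.12). Srebf1, the transcription factor of lipogenesis, fell by 0.63 ± 0.16 (adjusted p = 0.0044), while Fasn, the fatty acid synthase gene, was 9.03 ± 0.21 against 9.11 ± 0.49 and was not called (adjusted p = 0.92). The rises were in Elovl5 and Scd1 and the other fall in Elovl2, and each of these 3 calls was lost without at least 1 single array, PBS array 090 for both rises and PBS array 032 for Elovl2 among them. With only the compared arrays 1 rose and 4 fell. Of 16 cholesterol synthesis genes 6 rose and none fell (median 0.51), or 3 without valproic acid array 006 and 3 without PBS array 032. Pmvk, phosphomevalonate kinase, rose from 7.14 ± 0.41 (SD, n = 5) to 8.30 ± 0.38 (SD, n = 5), by 1.16 ± 0.22, and Sqle, squalene epoxidase, was not called (0.10 ± 0.24). Among lipoprotein genes Pltp, a phospholipid transfer protein, rose 2.37-fold (1.25 ± 0.23), Apoa1 fell by 0.17 ± 0.04, a call lost with only the compared arrays, and Mttp, which loads lipid onto apolipoprotein B, was not called (-0.16 ± 0.07).

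Trib3, a pseudokinase of the ATF4 response, stood at 6.75, 5.55, 5.75, 6.10 and 6.06 against 4.72, 4.32, 4.52, 4.42 and 4.69 and rose 2.84-fold (1.51 ± 0.27, adjusted p = 3e-05). All treated arrays lay above all vehicle arrays, but of the 22 genes of that response 4 rose and 3 fell, where 2 rose without valproic acid array 006 or 081 or PBS array 020 and 2 rose and 4 fell after normalizing the quantiles again. Atf4 itself fell by 0.40 ± 0.10, a call lost with only the compared arrays, and Ddit3, which encodes CHOP, was not called (-0.04 ± 0.13). Of 23 regulators of histone acetylation, which include deacetylases, acetyltransferases and their partners, the deacetylase gene Hdac3 rose by 0.39 ± 0.09, a call lost with only the compared arrays, and Hdac5 and Hdac11 were called higher with calls lost after normalizing the quantiles again or without several single arrays, valproic acid array 028 and PBS array 090 for both. In limma 0 of 21 circadian clock genes and 0 of 18 interferon response genes were called. At an unadjusted p under 0.05 stood 7 and 3 of them, beside 3378 of all 16464 genes. Of 15 p53 targets 3 rose, Sesn1 (0.51 ± 0.11), Fas and Ccng1, and Cdkn1a was close to background in both groups.

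The remaining lists held few calls. Of 26 lysosome genes 7 rose and 1 fell, or 3 rose without valproic acid array 081, PBS array 020 or PBS array 032 and after normalizing the quantiles again, with Atp6v1b2, a proton pump subunit, at 0.43 ± 0.10. Of 25 nuclear receptors Nr1i3 alone rose and Hnf4a, the hepatocyte master factor, alone fell (-0.23 ± 0.08, a call lost with only the compared arrays and without any 1 of 8 of the 10 arrays). Of 20 genes of glycolysis, gluconeogenesis and glycogen 2 rose, Irs2, an adaptor of the insulin receptor (0.66 ± 0.22), a call lost without any 1 of 6 arrays, and Gckr (0.34 ± 0.09). Of 16 genes of triglyceride and phospholipid assembly Mogat1 alone was called, higher, and its call was lost with only the compared arrays and without any 1 of 4 arrays. Of 14 haem genes Slc48a1 and Hmox2 were higher, both calls lost after normalizing the quantiles again, of 20 proteasome subunits Psma7 was higher, and of 9 histone genes H2az1 was lower, a call lost with only the compared arrays. In limma 0 of 8 cytosolic ribosomal protein genes were called, with 1 at an unadjusted p under 0.05, beside 3378 of all 16464 genes.

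Lower doses were set beside the high dose to see which levels belong to it. By dose on day 11, Cyp4a14 stood at 7.41 ± 0.90, 10.49 ± 0.58, 12.06 ± 0.22 and 12.30 ± 0.11 (SD, n = 5 each) from PBS through 125 and 250 to 500 mg/kg. Its level at 250 mg/kg was not called different from that at 500 mg/kg (0.23 ± 0.75, adjusted p = 0.98). The SE, shared by all groups, is wider than the SDs at both doses, so the missing call does not show equal levels. Cyp2b10 stood at 2.76 ± 0.16, 3.19 ± 0.28, 5.28 ± 1.34 and 6.69 ± 0.49 along the same order, and its difference between the upper doses was 1.41 ± 0.33 (adjusted p = 0.077). The arrays at 250 mg/kg spread widely for the sex-dependent genes, with 7.33 ± 2.30 for Cyp2b9 and 8.39 ± 3.03 for Hsd3b5.

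**Figure D4:**
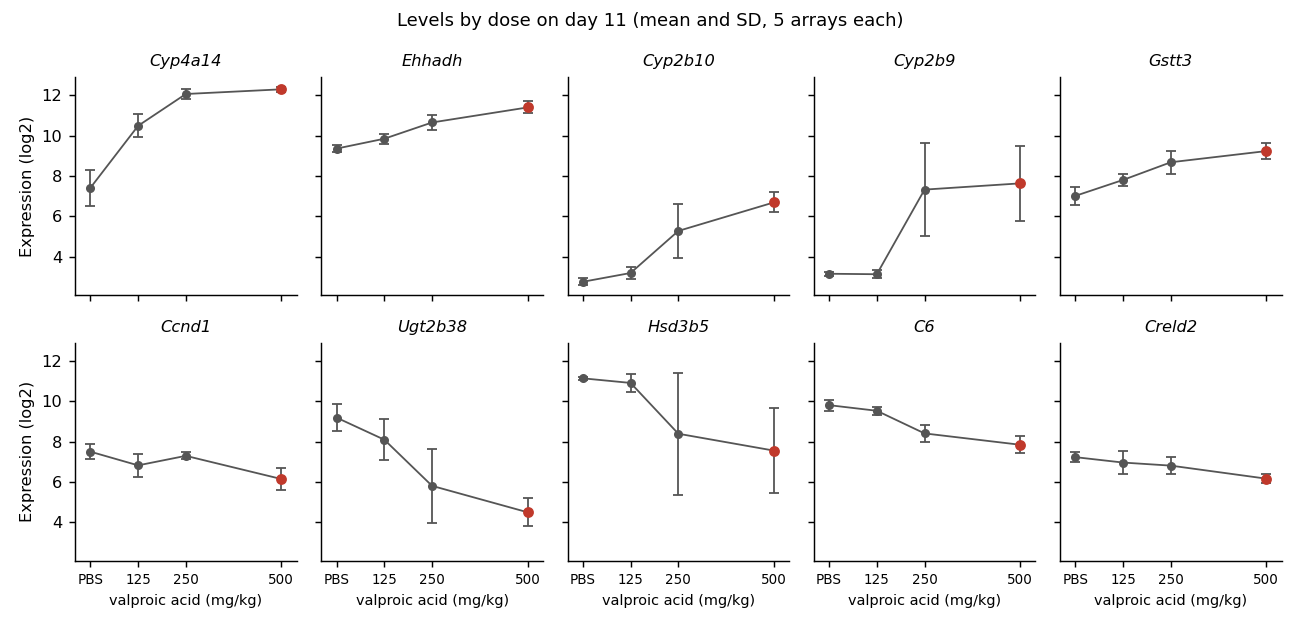
Mean log2 level of 10 genes on day 11 against the dose of valproic acid in mg/kg, with PBS at the left of each panel, bars of 1 SD over 5 arrays and the 500 mg/kg group in red. Cyp4a14 stands at 12.06 at 250 mg/kg and 12.30 at 500 mg/kg, Ehhadh at 10.65 and 11.40, and Ccnd1 is at 7.29 at 250 mg/kg and 6.15 at 500 mg/kg.

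Directly compared, 500 and 250 mg/kg differed in 6 of 16464 genes (0.0364%), 4 higher (0.0243%) and 2 lower (0.0121%), with 1170 genes at an unadjusted p under 0.05. Ehhadh was higher at 500 mg/kg, at 11.40 ± 0.30 (SD, n = 5) against 10.65 ± 0.35 (SD, n = 5), by 0.75 ± 0.16 (adjusted p = 0.025). Cox6b2, a testis-type subunit of cytochrome oxidase (0.76 ± 0.15), Serpinb1a, a protease inhibitor (0.78 ± 0.15), and Ethe1, a mitochondrial sulfur dioxygenase (0.59 ± 0.13), were higher too. Ccnd1 was lower at 6.15 ± 0.54 against 7.29 ± 0.18 (-1.15 ± 0.22, adjusted p = 0.013), as was the sinusoidal endothelial gene Clec4g (-0.36 ± 0.07). The mean over 14 endothelial markers ran from 5.48 to 5.70 at 500 mg/kg and from 5.71 to 5.87 at 250 mg/kg, without overlap (median difference -0.17, Clec4g alone called, 7 at an unadjusted p under 0.05). That over 17 Kupffer cell markers ran from 5.23 to 5.58 and from 5.54 to 6.27 (median difference -0.40), and limma called 0 of them, with 12 at an unadjusted p under 0.05. The part of these markers in the 6 calls was not tested. The count rested on single arrays and on the fit, since limma called 0 genes with only the compared arrays. Leaving out 1 array gave 1 gene without valproic acid array 081 of the high dose or 055 of the middle dose, 2 without 006, 3 without 037, 16 without 067 and 17 without 028, and each of the 6 calls was lost without at least 2 single arrays.

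Amiodarone at 60 mg/kg, the high dose of another steatosis drug with the same vehicle and day, was compared directly with valproic acid. The arrays differed in 1327 genes (8.06%), 762 higher (4.63%) and 565 lower (3.43%) with valproic acid, or 632 and 633 after normalizing the quantiles again. Valproic acid gave higher levels of amino acid catabolism genes, 16 of 20 called higher and none lower (median 0.47), and of complement and coagulation genes, 13 of 30 higher and 1 lower, or 6 higher with only the compared arrays. It gave lower levels of fat oxidation and droplet genes, with 11 of 21 peroxisomal, 9 of 21 mitochondrial oxidation and 9 of 17 droplet genes called lower and 1 higher in each. These directions are against amiodarone and not against PBS. Against PBS, 11 of the 30 complement and coagulation genes were called lower with valproic acid and none higher. There 9 peroxisomal and 12 mitochondrial oxidation genes were called higher, with 1 and 0 lower.

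Single genes marked the contrast. Mogat1, a monoacylglycerol acyltransferase, was 3.19 ± 0.26 with valproic acid, 5.42 ± 0.38 with amiodarone and 2.74 ± 0.23 with PBS (SD, n = 5 each), and valproic acid lay below amiodarone by 2.23 ± 0.14 (adjusted p = 1.5e-21). Plin2 was 10.74 ± 0.22 with valproic acid and 11.76 ± 0.13 with amiodarone (-1.02 ± 0.13, adjusted p = 1.9e-08), and Cyp4a31 was 8.17 ± 0.63 and 10.58 ± 0.22 (-2.41 ± 0.29). Cyp4a14 was 12.30 ± 0.11 and 12.63 ± 0.09 and was not called (-0.33 ± 0.75, adjusted p = 0.88). That SE, shared by all groups, is wider than both SDs, so the missing call does not show equal levels. Higher with valproic acid were Cyp2b9 (3.95 ± 0.54), Hamp2 (2.33 ± 0.41) and Cyp39a1 (2.07 ± 0.19), and lower was Rad51b, a recombination gene, at 3.68 ± 0.49 against 6.78 ± 0.33. Of the 17 male-predominant genes 7 were lower with valproic acid and none higher, or 4 without amiodarone array 039. Ugt2b38 was lower by 2.39 ± 0.64 and Hsd3b5 by 2.62 ± 0.59, the latter not called with only the compared arrays. For endoplasmic reticulum chaperones 2 of 22 were called higher and none lower (median 0.05), and Hsp90b1 was 10.62 ± 0.06 against 10.66 ± 0.13.

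The effect of 500 mg/kg, each day against its own vehicle, was compared between days to see which changes belonged to day 11. Between days 11 and 1 it differed in 2023 genes (12.3%), 1147 upward (6.97%) and 876 downward (5.32%). Endoplasmic reticulum chaperones and acute phase genes were high on day 1 and not on day 11. Of 22 chaperone genes 19 differed downward and none upward, with list medians of 0.77 on day 1, 0.07 on day 4 and -0.42 on day 11. Of 26 acute phase genes 22 differed downward and none upward, with medians of 2.06, 0.72 and 0.00 on the same days.

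Sdf2l1, an endoplasmic reticulum chaperone cofactor, was 9.46 ± 0.28 against 7.45 ± 0.67 with PBS on day 1 (SD, n = 4) and 6.78 ± 0.53 against 7.60 ± 0.47 on day 11 (SD, n = 5), a difference of effects of -2.82 ± 0.42 (adjusted p = 2e-07). Saa2 was 12.75 ± 0.24 against 7.29 ± 1.55 on day 1 and 5.85 ± 2.27 against 6.36 ± 0.68 on day 11 (-5.97 ± 1.30). Array 049 stood at 9.84 on day 11, and the other 4 lay between 4.42 and 5.46. Cxcl1, a neutrophil-attracting chemokine, and Prtn3, a protease gene, differed by -5.17 ± 0.74 and -5.53 ± 0.77.

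Other genes differed upward between days 11 and 1. Cyp2b10 was 2.81 ± 0.37 against 3.13 ± 0.29 on day 1, both near background, and stood on day 4 at 6.23 ± 0.75 against 2.93 ± 0.20 (SD, n = 4). The difference of effects between days 11 and 1 was 4.25 ± 0.50 (adjusted p = 3.2e-10) and between days 11 and 4 was 0.63 ± 0.50 (adjusted p = 0.65). Cyp2b9 was at 3.84 ± 0.78 against 3.26 ± 0.21 on day 4, and its effect on day 11 was larger by 3.91 ± 0.81 (adjusted p = 0.0026). Ehhadh was level with the vehicle on day 1, 9.43 ± 0.41 against 9.37 ± 0.09, and stood at 11.16 ± 0.22 against 9.56 ± 0.26 on day 4. Of 26 oxidative phosphorylation genes 17 differed upward between days 11 and 1, or 10 after normalizing the quantiles again and 6 with only the compared arrays. The median of that list was -0.18 on day 1 and 0.07 on day 11, so the day 1 values lay below the vehicle. Of 20 amino acid catabolism genes 15 differed upward (medians -0.19 and 0.35 on days 1 and 11), of 21 branched-chain genes 14 upward and 1 downward (-0.13 and 0.28), and of 22 NRF2 enzymes 12 upward and none downward (-0.29 and 0.23).

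**Figure D5:**
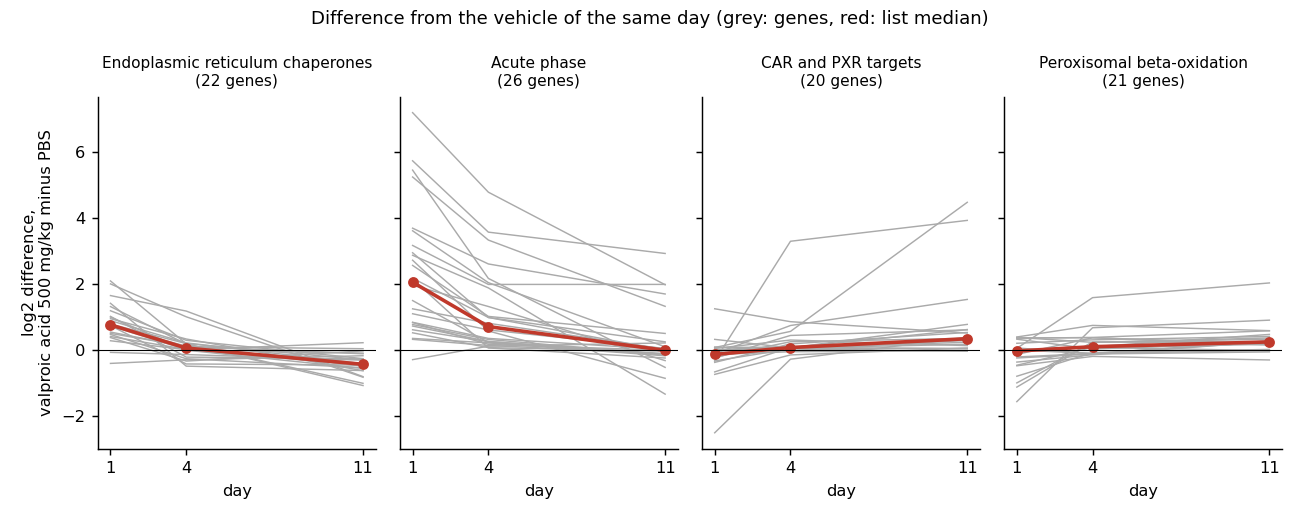
Log2 difference between 500 mg/kg of valproic acid and the PBS of the same day on days 1, 4 and 11, with 1 grey line per gene and the list median in red, for 4 lists. The chaperone median goes from 0.77 to -0.42 and the acute phase median from 2.06 to 0.00, while the medians of CAR and PXR targets and peroxisomal genes go from -0.12 to 0.35 and from -0.02 to 0.26.

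Between days 11 and 4 the effect differed in 339 genes (2.06%), 243 upward (1.48%) and 96 downward (0.583%). Of the chaperones 8 of 22 differed downward, or 5 with only the compared arrays, with Sdf2l1 at -1.83 ± 0.42 and Derl3 at -1.98 ± 0.45, both not called in that fit. Of complement and coagulation genes 8 of 30 differed downward, or 4 without the day 11 array 006 or the day 4 array 068 of valproic acid and 3 with only the compared arrays. Markers of other cell types differed downward as well. The mean over 17 Kupffer cell markers ran on day 4 from 5.54 to 6.11 with valproic acid and from 4.94 to 5.85 with PBS, with list medians of 0.67 on day 4 and -0.02 on day 11. Of these 17 markers Csf1r (-0.94 ± 0.24) and Clec4f (-0.84 ± 0.22) were called, both named after their values were seen, and the count was 0 without PBS array 041 of day 4, 7 without PBS array 040 of day 4, and 1 without any of 5 other single arrays. The mean over 14 endothelial markers ran on day 4 from 5.74 to 5.92 with valproic acid and from 5.46 to 5.63 with PBS, and Clec4g alone was called (-0.60 ± 0.11). The part of these markers in the other differences was not tested. Osgin1, higher than the vehicle on day 4 (8.35 ± 0.40 against 7.94 ± 0.38) and lower on day 11, differed by -2.16 ± 0.38 (adjusted p = 0.00051), and Slc41a2, a magnesium transporter, by -2.22 ± 0.41. Upward were Rgs16, a regulator of G protein signalling, at 3.41 ± 0.62, Hamp2 at 2.44 ± 0.61, Pltp at 1.70 ± 0.34 and Aqp8 at 1.75 ± 0.47, a call lost without any 1 of 6 single arrays. Rgs16 was not called against PBS on day 11, so its difference between days is not a called rise over the vehicle. Hamp2 had been below the vehicle on day 1, 8.09 ± 0.29 against 10.82 ± 0.84, and lay above it on day 11. The count of 339 fell to 186 without PBS array 087 and 224 without PBS array 041 of day 4, to 201 without valproic acid array 068 of day 4, and to 197 without valproic acid array 081 and 223 without PBS array 032 of day 11.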

How the data were processed

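Total RNA from the central portion of the left lateral liver lobe was measured on Affymetrix arrays, and the deposited values are log2 expression values that the authors normalized with RMA, per the submitters' processing notes. No source used here gives the version of RMA or the probe annotation behind it. In all there are 17306 probe sets, of which 16464 carry 1 gene symbol and 842 none, with 1 probe set per gene, and all 16464 matched a RefSeq entry by Entrez Gene number. No value was missing and no 2 of the 95 arrays were identical. Groups were taken from the sample titles.

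All 95 arrays in 21 groups entered 1 linear model in limma 3.58.1 (R 4.3.3) with a mean for each group and moderated variances (eBayes, 74 residual degrees of freedom). P-values were adjusted with Benjamini-Hochberg over the 16464 genes, and a gene was called at an adjusted p under 0.05. Comparisons were 500 mg/kg of valproic acid against PBS, against 250 mg/kg and against amiodarone on day 11, and the effect of day 11 minus that of days 1 and 4. Groups that share the PBS arrays are given only as levels side by side. The model was tested on simulated data drawn from normal distributions with 1 SD per gene for all groups. Such data cannot show how the model handles groups of unlike spread. The alternatives were a fit of only the compared arrays, array weights, dim genes left out (8236 genes kept), quantiles normalized again, arrays centred, blocks of 24 sample numbers (which the labels do not call batches), a trended robust variance, and leaving out each array.

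Named genes were the 20 largest changes each way whose groups did not overlap (predicted genes left out), up to 4 called members of each list, the 6 largest each way in the other comparisons, a followed set, and further list members where their list is described, C8g and 2 Kupffer cell markers having been added after their values were seen. The members and lists were chosen with earlier results of these data known. There were 56 lists, 44 of processes and 12 of cell types, with 858 of 1030 genes measured, 8 of them found by a synonym. Promoters are from the RefSeq table of GRCm38.p6, which holds 32851 entries, and the 250 bases before the start were searched on both strands, a search chosen after the values were seen. Summaries and plots used Python 3.11.15, pandas 2.3.3, numpy 2.4.6 and matplotlib 3.10.9.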

Additional observations from a re-analysis of the deposited data

Results flagged for a closer look

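In 26 of 364 groups of 5 arrays examined for the named genes, 1 array stood apart from the other 4 by Dixon's criterion, which chance alone meets in about 1 of 20 groups. Valproic acid array 049 stood apart for Cpt1a at 8.94 (others 9.13 to 9.17), Derl3 at 5.18 (others 3.38 to 3.74) and Eci1 at 9.98 (others 10.23 to 10.33). Valproic acid array 049 was also apart for Nrep at 5.38 (others 6.26 to 6.57), Prtn3 at 5.50 (others 2.58 to 2.97) and Saa1 at 12.16 (others 6.97 to 7.80). Valproic acid array 049 lay apart again for Saa2 at 9.84 (others 4.42 to 5.46), Sdf2l1 at 7.70 (others 6.33 to 6.66) and Slc25a15 at 9.97 (others 9.52 to 9.63). Valproic acid array 049 stood apart for Tm6sf2 at 8.15 (others 7.56 to 7.73). PBS array 073 stood apart for Adh6-ps1 at 5.84 (others 6.45 to 6.65), Aox3 at 11.00 (others 11.41 to 11.58) and Bckdhb at 9.19 (others 8.84 to 8.93). PBS array 073 was also apart for Cyp2u1 at 5.42 (others 6.29 to 6.64) and Lect2 at 9.64 (others 9.52 to 9.55). Valproic acid array 006 stood apart for Abcc4 at 4.93 (others 3.63 to 3.82), Hsd3b5 at 3.95 (others 7.71 to 9.01) and Scd1 at 11.91 (others 11.40 to 11.50). PBS array 090 stood apart for Dnajb11 at 6.79 (others 6.34 to 6.42), Elovl5 at 10.76 (others 11.20 to 11.37) and Hdac11 at 5.83 (others 6.12 to 6.15). Valproic acid array 078 stood apart for Gclm at 10.55 (others 10.23 to 10.26) and Mccc1 at 6.72 (others 6.96 to 6.99). Valproic acid array 028 stood apart for Cish at 6.42 (others 3.86 to 4.48). PBS array 032 stood apart for Srxn1 at 4.60 (others 4.12 to 4.23). PBS array 002 stood apart for Stat5b at 4.13 (others 4.04 to 4.06).

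Between days 11 and 1 the effect of 500 mg/kg differed for these named genes in limma, given as the log2 effect on day 11 minus that on day 1. Acyl-CoA thioesterases and omega-oxidation had differences of Acot1 2.86, Acot2 1.04, Acot3 4.31, Acot4 1.66, Aldh3a2 1.72 and Cyp4a31 1.91. For fatty acid oxidation they were Acad10 1.73, Acadl 0.49, Acadm 0.38, Eci1 0.49 and Ehhadh 1.98. Amino acid breakdown gave Bckdhb 0.71, Mccc1 0.56, Mccc2 0.55, Got1 1.72, Cth 0.99, Oat 0.88, Prodh 1.07 and Hal 0.50. Pyruvate, citrate and sulfur enzymes had differences of Idh2 0.94, Pdk1 1.29, Ethe1 1.76, Gckr 0.52 and Irs2 0.93. For cytochromes P450 they were Cyp17a1 2.57, Cyp2b10 4.25, Cyp2b9 4.39, Cyp2c37 0.90, Cyp2c38 1.64 and Cyp2c54 0.70. Other cytochromes P450 gave Cyp2f2 0.36, Cyp39a1 0.96, Cyp3a11 0.29 and Cyp7a1 2.01. Conjugation had differences of Gsta2 3.06, Gstm3 2.42, Gstt3 2.72, Mgst3 1.78, Papss2 2.43 and Sult1d1 2.12. For redox, receptor and carrier genes they were Nqo1 1.18, Nr1i3 0.85, Slco1a4 3.16, Akr1d1 1.58 and Fmo2 1.51. Chaperones gave Calr -1.57, Creld2 -3.16, Derl3 -2.45, Dnajb11 -2.32, Dnajc3 -1.23, Edem1 -0.51 and Hsp90b1 -0.88. Further chaperones and their regulators had differences of Hspa5 -1.19, Pdia6 -1.30, Sdf2l1 -2.82, Xbp1 -1.01 and Atf4 -0.48. For complement they were C6 -1.93, C8a -0.93, C8b -1.21, C9 -0.56 and Hc -0.70. Acute phase and inflammation gave Saa1 -4.20, Saa2 -5.97, Lcn2 -5.21, Cxcl1 -5.17 and Prtn3 -5.53. Secreted factors had differences of Enho -1.31, Inhba -1.04, Inhbc -1.60, Lect2 0.44, Serpina12 -3.09 and Hamp2 4.54. For lipid genes they were Cd36 1.85, Elovl5 1.27, Scd1 1.72, Sqle -1.57 and Pltp 1.75. Transcription and chromatin gave Hdac11 0.54, Hdac3 0.41, Trib3 1.61, Sesn1 0.46 and Tk1 1.68. Other genes had differences of Adh6-ps1 -1.20, Serpina4-ps1 -4.33, Serpinb1a 1.49, Osgin1 -1.09, Slc41a2 -3.68 and Clec4g -0.53. For carriers and sulfotransferases they were Abcc3 0.94, Abcc4 0.78, Slc22a27 0.79, Sult1a1 0.74, Sult1b1 1.34, Cyp3a13 -0.73, Abca1 -0.51 and Hsd17b11 1.06. Further genes gave Aqp8 2.60, Atp6v0d2 1.78 and Rgs16 4.71.

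Between days 11 and 4 the effect of 500 mg/kg differed for these named genes in limma, given as the log2 effect on day 11 minus that on day 4. Amino acid breakdown had differences of Bckdhb 0.41, Mccc1 0.63, Cth 0.55 and Oat 0.80. For pyruvate, citrate and sulfur enzymes they were Pdk1 1.04 and Ethe1 0.98. Cytochromes P450 gave Cyp17a1 2.78 and Cyp2b9 3.91. Conjugation had differences of Gstt3 1.62 and Papss2 0.71. For redox, receptor and carrier genes they were Gclm -0.38, Slco1a4 1.51 and Akr1d1 0.80. Chaperones gave Calr -0.96, Derl3 -1.98, Dnajb11 -1.19, Dnajc3 -0.61 and Hsp90b1 -0.49. Further chaperones and their regulators had differences of Pdia6 -0.63 and Sdf2l1 -1.83. For complement they were C6 -1.38, C8a -0.69, C8b -0.76, C9 -0.58 and Hc -0.71. Acute phase and inflammation gave Prtn3 -2.85. Secreted factors had differences of Enho -1.57, Inhbc -1.38 and Hamp2 2.44. For lipid genes they were Cd36 1.25, Scd1 1.03 and Pltp 1.70. Transcription and chromatin gave Hdac3 0.64, Hnf4a -0.51, H2az1 -0.50 and Trib3 1.64. Other genes had differences of Serpinb1a 1.21, Osgin1 -2.16, Slc41a2 -2.22 and Clec4g -0.60. For carriers and sulfotransferases they were Sult1a1 0.90 and Sult1b1 1.25. Kupffer cell markers gave Clec4f -0.84 and Csf1r -0.94. Further genes had differences of Aqp8 1.75, Atp6v0d2 1.25 and Rgs16 3.41.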

How the results depend on the processing

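The alternatives were the 7 settings listed with the methods and the leaving out of single arrays. The count of 1487 genes at 500 mg/kg against PBS lay between 1001 (only the compared arrays in the fit) and 1690 (dim genes left out), and from 1143 to 1444 as 1 array was left out. The count of 6 against 250 mg/kg was 0 with only the compared arrays, 14 with array quality weights, 10 with dim genes left out and 1 to 17 as 1 array was left out. Against amiodarone the count of 1327 kept within 1.5 times, from 1047 to 1261 as 1 array was left out, and between days 11 and 1 that of 2023 did so too, from 1762 to 2058. Between days 11 and 4 the count of 339 was 224 with only the compared arrays, 551 with dim genes left out and 186 to 395 as 1 array was left out. Fewer genes enter the adjustment when dim genes are left out, and fewer arrays estimate the spread when only the compared arrays are used. The cause of the other shifts was not tested. Of 182 named genes 144 were called against PBS, and 109 of these kept the call under every alternative run, while 35 lost it under at least 1 and none changed sign. By setting, 20 lost it with only the compared arrays, 10 after normalizing the quantiles again, 3 with centred arrays, 2 with array weights and between 2 and 17 as 1 array was left out, 17 of them without valproic acid array 006. Being called was a rule of choice for many named genes, so these counts do not carry over to all genes, of which 9.03% were called. A gene that the dim filter left out was not counted as having lost its call. Another 9 named genes gained a call under at least 1 alternative (C8g, Cyp4a12a, Derl3, Hspa5, Mttp, Saa1, Sdf2l1, Srxn1 and Stat5b). No paired analysis was possible because the sample numbers in the labels differ for every array. Blocks of 24 consecutive numbers as a factor gave 1510 genes against PBS. The number of arrays limits the precision, and levels close to background bound the size of a change.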

Other observations

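The genes below belong to lists described above and were chosen with their values known. Of the export pumps, Abcc3 rose by 0.44 ± 0.12 and Abcc4 by 0.59 ± 0.16, the first not called without PBS array 090 and the second without valproic acid array 006 or with only the compared arrays. Slc22a27, an organic anion carrier, rose by 0.77 ± 0.15 (adjusted p = 0.0002) from a level close to background, so this is a lower bound. The phenol sulfotransferase gene Sult1a1 rose by 0.69 ± 0.12 (adjusted p = 3.3e-05) and Cyp3a13, a cytochrome P450 gene, by 0.52 ± 0.13 (adjusted p = 0.0025). Another sulfotransferase gene, Sult1b1, rose by 0.52 ± 0.18 (adjusted p = 0.049), a call lost under either rescaling, with only the compared arrays and without any 1 of 7 single arrays.

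Tm6sf2, which takes part in the lipidation of very-low-density lipoprotein, stood at 7.73, 7.71, 8.15, 7.56 and 7.59 on the treated arrays and at 7.16, 6.92, 6.89, 7.08 and 6.82 on the vehicle arrays. The groups did not overlap, and it rose by 0.77 ± 0.15 (adjusted p = 0.0002). The cholesterol exporter gene Abca1 fell, at -0.42 ± 0.08, as did Apom, an apolipoprotein gene, at -0.27 ± 0.06. Hsd17b11, an enzyme of the droplet surface, rose by 0.64 ± 0.08 (adjusted p = 4.7e-09). Abhd5, the activator of the droplet lipase, fell, at -0.42 ± 0.14 (adjusted p = 0.033), a call lost with only the compared arrays and without any 1 of 5 single arrays.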
